A study of Homo sapiens with 19 samples.

Results

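Knockdown of ADAR was compared with a control siRNA in differentiated HepaRG cells, an established human hepatic line whose progenitor cells can mature toward both hepatocytes and bile duct cells. The comparison used 6 of the 19 libraries of the series: 3 that received the ADAR siRNA and 3 that received a negative control siRNA (siNC), all of batch 1. Cells of both groups were differentiated in 12-well plates, transfected with 20 nM siRNA and given fresh medium 24 h and 48 h later, the second time without serum. A further 3 batch 1 libraries received an siRNA against ADARB1 in the same way. Batch 2 held 2 libraries with the ADAR siRNA and 1 µM BX795, 3 with BX795 alone, 2 with 1000 U/mL interferon alpha (IFNa) and 3 siNC libraries of its own. HepaRG is 1 line from 1 source, 1 siRNA sequence was used per target, and it is not stated that replicates came from separate cultures, so p-values measure only the spread between libraries. Of 21747 genes tested in batch 1, 21354 lay outside the lists of known interferon genes (204 tested) and known drug-metabolism genes (189 tested), and these 21354 are described here.

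ADAR deaminates adenosine to inosine in double-stranded RNA, and one of its forms is itself induced by interferon. Loss of this editing lets cellular double-stranded RNA be sensed as foreign, which is why interferon-stimulated genes are the best known readout of ADAR depletion. The question here is what else changed in a hepatic culture, in particular among structural, signalling, metabolic and housekeeping genes.

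ADAR stood at 239, 239 and 241 counts-per-million units (CPM, scaled between libraries) in the siNC libraries and at 57.7, 56.0 and 65.1 CPM after its siRNA, a log2 fold change of -2.01 ± 0.05 (SE, adjusted p = 4.13e-12). The ADARB1 siRNA libraries held 242 to 246 CPM, so the 3 libraries labelled with the ADAR siRNA stood apart from the other 6. ADARB1, the second catalytically active editing enzyme of the family, fell slightly after the ADAR siRNA, from 29.9 to 24.9 CPM (log2 -0.26 ± 0.06, adjusted p = 0.00178). Library totals in the 3 batch 1 groups ran from 42651970 to 77103703 counts, and the 5 genes with most counts took 15.8% to 16.7% of counts after the ADAR siRNA and 18.3% to 18.6% in siNC.

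Outside the lists, 4209 genes were higher and 3723 lower after the ADAR siRNA at an adjusted p below 0.05, the threshold for every call below. Over all tested genes 37.8% were called, 20.2% higher and 17.6% lower, and 47.9% had 3 ADAR siRNA and 3 siNC libraries that did not overlap. Most called changes were small, with a median absolute log2 fold change of 0.361 outside the lists. Only 444 risers and 375 fallers reached 2-fold. Above 100 CPM, 65.7% of genes were called but 19 reached 2-fold, whereas below 1 CPM 9.44% were called and 458 reached 2-fold. Weakly expressed genes can pass the expression filter through the group in which they are high, so a large fold among them is partly fixed by that filter. When all 19 libraries were fitted together, 2395 outside genes were higher and 2415 lower.

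**Figure D1:**
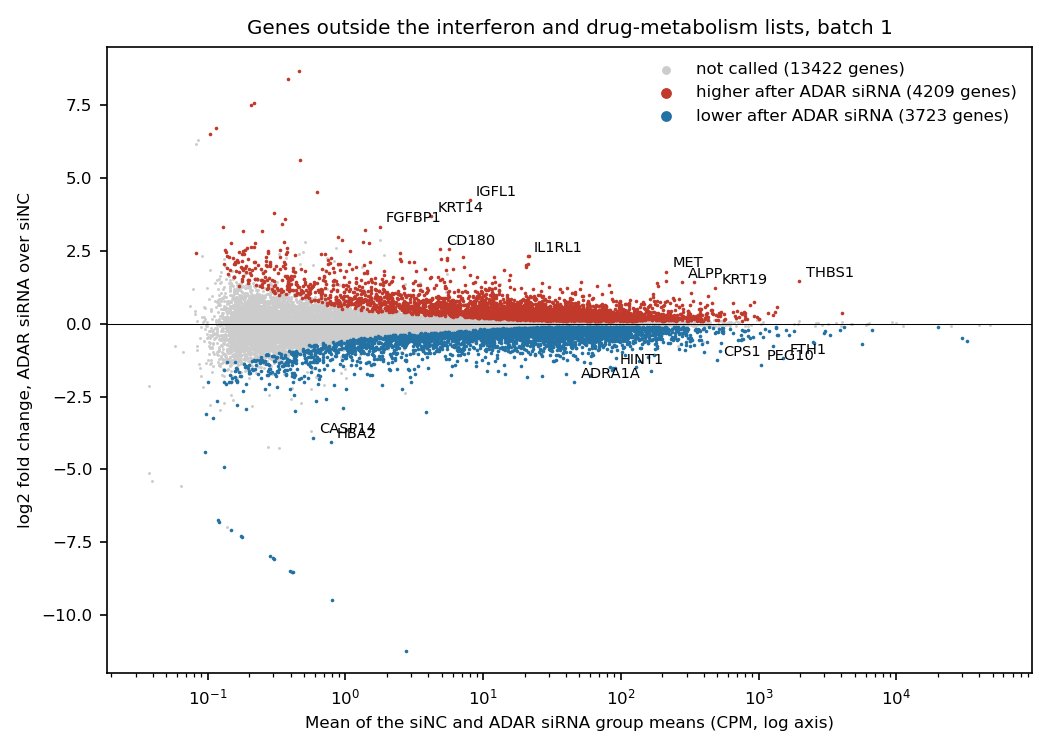
Log2 fold change after the ADAR siRNA (vertical) against mean level in CPM on a log axis (horizontal) for the 21354 tested genes outside the lists; each point is a gene, and labelled genes are described in the text. Large folds lie mainly at low levels: 19 of the 25 called genes beyond a log2 change of 4 have 1 group with 0 counts in all 3 libraries, for which the fitted fold has no fixed size, and the most abundant labelled genes move by 1 to 2 on the log2 scale.

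Of the genes set aside, 143 interferon genes rose and 16 fell, and 39 drug-metabolism genes rose and 93 fell. Outside the lists, protein-coding genes were called more often than noncoding ones and tilted the other way. Of 13953 outside protein-coding genes 3863 rose and 2931 fell, whereas of 1891 long noncoding RNAs 130 rose and 284 fell, and of 938 pseudogenes 31 rose and 90 fell. At 2-fold or more, 301 protein-coding genes rose and 163 fell. Outside protein-coding risers had a median transcript length of 3606 bases and a median GC content of 48.38%, against 4251 bases and 48.21% for fallers and 3475 bases and 48.01% for genes not called. Risers of at least 2-fold had a median GC content of 52.3% and a median siNC level of 0.825 CPM, so in control cells at least as many lay below 1 CPM as above it.

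The 15 largest rises outside the lists were of genes with varied roles, and KRT14, KRT17 and SCEL among them encode proteins of stratified epithelia. IGFL1, a secreted growth factor-like protein, stood at 0.853, 0.519 and 0.967 CPM in siNC and at 14.7, 16.4 and 14.5 CPM after the ADAR siRNA (log2 4.24 ± 0.15, adjusted p = 1.42e-10). KRT14, a keratin of basal epithelial cells, went from 0.477 to 0.836 CPM up to 7.56 to 8.17 CPM (log2 3.68 ± 0.25). KRT17, a keratin of epithelial appendages and wounded skin, went from 1.22 to 2.17 CPM up to 8.44 to 10.7 CPM (log2 2.57 ± 0.16). In each of these the lowest ADAR siRNA library lay at several times the highest siNC library, and the ADARB1 siRNA libraries lay near siNC. FGFBP1, which carries fibroblast growth factors in the extracellular space, rose by 3.34 ± 0.23, and SNCG, gamma-synuclein, by 3.20 ± 0.22. CHAT, the acetylcholine-synthesising enzyme, rose by 2.99 ± 0.45 from below 0.4 CPM in every siNC library. DES, the muscle intermediate filament desmin, rose by 2.42 ± 0.19, and PLCH2, a phospholipase C, by 2.41 ± 0.37. BATF3, a transcription factor of the AP-1 superfamily, rose by 2.38 ± 0.41 from 0.220 to 1.20 CPM. APOA4, an apolipoprotein of intestine and liver, stood at 2.07, 2.42 and 2.75 CPM in siNC and at 11.9, 11.6 and 12.4 CPM after the ADAR siRNA.

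Among receptors and matrix proteins, NPNT (nephronectin) and ITGA8, the integrin chain of its best known receptor, moved in opposite directions. NPNT stood at 0.248 to 0.371 CPM in siNC and at 2.00 to 2.61 CPM after the ADAR siRNA (log2 2.82 ± 0.30), while ITGA8 stood at 2.87 to 3.12 CPM and fell to 0.619 to 0.858 CPM (log2 -2.10 ± 0.17). ITGA8 was also at 1.20 to 1.39 CPM after the ADARB1 siRNA, and the direct difference between both siRNAs was -0.89 (adjusted p = 0.00114). CD180, a Toll-like receptor homologue best known from B cells, stood at 1.43, 1.45 and 1.34 CPM in siNC and at 8.19, 9.02 and 7.58 CPM after the ADAR siRNA (log2 2.56 ± 0.13). IL1RL1, the receptor of interleukin 33, stood at 6.37, 7.29 and 7.42 CPM in siNC and at 31.8, 37.3 and 36.1 CPM (log2 2.32 ± 0.10). SCEL, sciellin, a precursor of the cornified envelope, went from 0.361 to 0.400 CPM up to 2.47 to 2.71 CPM (log2 2.79 ± 0.20). The alpha-tubulin TUBA1A rose from 6.55 to 8.12 CPM up to 34.3 to 37.3 CPM (log2 2.32 ± 0.09). Near-identical tubulins moved less, with TUBA1B up by 0.64 and TUBA1C by 0.56, and reads shared between these genes, or between KRT14, KRT16 and KRT17, may have been split by the authors' quantification.

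**Figure D2:**
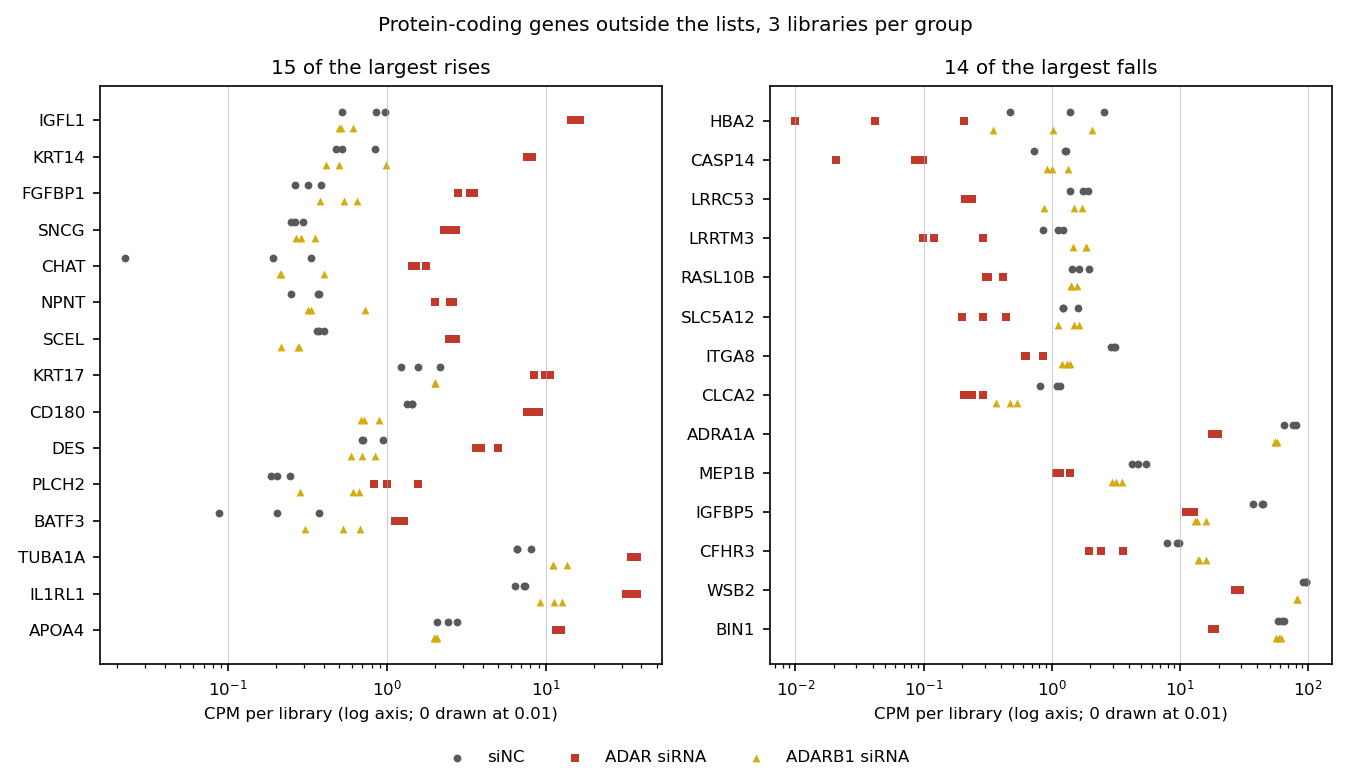
CPM of each batch 1 library (log axis; a library at 0 is drawn at 0.01) for the 15 protein-coding genes outside the lists that rose most and 14 of the 15 that fell most; circles are siNC, squares ADAR siRNA and triangles ADARB1 siRNA libraries. No square overlaps a circle, by the rule that chose the genes; the triangles lie wholly below the circles for SCEL, CD180, APOA4, ITGA8, CLCA2, ADRA1A, MEP1B, IGFBP5 and WSB2, wholly above them for PLCH2, TUBA1A, IL1RL1, LRRTM3 and CFHR3, and overlap them for the other genes drawn.

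The promoters of SCEL, CD180 and IL1RL1 are shown. They are the 3 of the 11 matched promoters among the 15 largest rises that hold the AP-1 letters TGANTCA, searched on both strands. Among the 15 largest falls, 2 of 10 matched promoters hold these letters, those of CASP14 and CLCA2. CASP14, the larger of these falls, is shown for comparison. Too few promoters were matched in either set to compare their shares. Each run is the 250 bases before the RefSeq start (GRCh38.p14), 5′ to 3′ on the gene's own strand, with the AP-1 letters in capitals. They lie at chr13:77535456-77535705 (SCEL, plus strand), chr5:67196800-67197049 (CD180, minus strand), chr2:102337007-102337256 (IL1RL1, plus strand, before a start inside the annotated gene) and chr19:15049230-15049479 (CASP14, plus strand).
SCEL: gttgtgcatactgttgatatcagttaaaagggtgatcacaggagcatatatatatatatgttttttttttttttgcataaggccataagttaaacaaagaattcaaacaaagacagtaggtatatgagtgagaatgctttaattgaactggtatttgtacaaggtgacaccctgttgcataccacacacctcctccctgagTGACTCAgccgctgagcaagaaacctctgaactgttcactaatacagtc
CD180: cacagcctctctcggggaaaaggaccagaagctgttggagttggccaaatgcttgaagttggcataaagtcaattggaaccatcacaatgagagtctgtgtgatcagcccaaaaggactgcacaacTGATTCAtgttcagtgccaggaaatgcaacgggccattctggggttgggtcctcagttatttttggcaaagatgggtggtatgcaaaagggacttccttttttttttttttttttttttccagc
IL1RL1: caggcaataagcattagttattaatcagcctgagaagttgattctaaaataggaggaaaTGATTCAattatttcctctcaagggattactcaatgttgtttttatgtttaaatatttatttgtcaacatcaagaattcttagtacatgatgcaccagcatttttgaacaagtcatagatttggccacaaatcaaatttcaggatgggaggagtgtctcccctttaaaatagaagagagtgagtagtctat
CASP14: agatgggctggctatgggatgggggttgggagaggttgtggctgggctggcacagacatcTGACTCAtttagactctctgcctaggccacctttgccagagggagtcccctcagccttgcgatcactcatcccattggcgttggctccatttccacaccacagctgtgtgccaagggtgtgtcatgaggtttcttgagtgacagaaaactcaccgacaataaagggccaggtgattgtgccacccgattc
The letters begin 49 bases before the start of SCEL, 124 before that of CD180, 191 before that of IL1RL1 and 190 before that of CASP14, which fell. They are a match of letters, not a measured site.

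The motif was then counted over the promoters of the RefSeq table (250 bases before to 50 after the start) of outside protein-coding genes. AP-1 letters were present in 173 of 3143 promoters of risers (5.50%), in 116 of 2363 of fallers (4.91%), in 527 of all 11166 tested (4.72%) and in 7.76% of all 27305 promoters of the RefSeq table. The interferon-stimulated response element, searched as paired TTTC half-sites with a 2-base gap, was present in 2.55% of risers, 2.33% of fallers and 2.57% of all tested. TATAAA was present in 6.55%, 6.98% and 6.46%, TTCNNNGAA (GAS) in 6.52%, 5.21% and 6.25%, and TTTCCCGC (E2F) in 3.02%, 2.41% and 2.47%. TEAD letters (ACATTCCA) were present in 0.732%, 0.508% and 0.627%. The HNF4A letters CAAAGTCCA were present in 5 promoters of risers (0.159%), 15 of fallers (0.635%) and 36 of all tested (0.322%), and the CArG core of the serum response element in 1, 1 and 5 promoters. For genes changed at least 2-fold and for interferon genes the count was void, since promoters were matched for only 218 of 296 risers, 116 of 158 fallers and 102 of 143 interferon risers, under 80%.

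The largest falls began with genes near 1 CPM in siNC. CASP14, an epidermal caspase, went from 0.728 to 1.29 CPM down to 0.0209 to 0.0998 CPM (log2 -3.91 ± 0.42, adjusted p = 3.58e-06). HBA2, an alpha-globin, was listed at 0.474 to 2.57 CPM in siNC and at 0 to 0.206 CPM after the ADAR siRNA (log2 -4.07 ± 0.84). The nearly identical HBA1 stood at 0.433 CPM and 0.436 CPM, so the split of reads between both genes is uncertain. LRRTM3, a synaptic adhesion protein, fell by 2.65 ± 0.33, LRRC53 by 2.89 ± 0.29 and RASL10B, a Ras-like GTPase, by 2.25 ± 0.21. Transport and protease genes were also among them: SLC5A12, a sodium-coupled lactate transporter, fell by 2.12 ± 0.28, and MEP1B, a meprin metalloprotease subunit, by 1.98 ± 0.15. CLCA2 fell by 2.06 ± 0.29.

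A second set of falls was at levels where each library held many counts. ADRA1A, the alpha-1A adrenergic receptor through which catecholamines act on hepatocytes, stood at 75.4, 80.8 and 64.7 CPM in siNC and at 17.7, 17.9 and 19.7 CPM after the ADAR siRNA (log2 -2.00 ± 0.07, adjusted p = 1.18e-10). WSB2, a SOCS-box protein, went from 90.4 to 96.7 CPM down to 26.7 to 29.1 CPM (log2 -1.76 ± 0.04). BIN1, which shapes membranes, went from 58.1 to 64.7 CPM down to 17.8 to 18.8 CPM (log2 -1.74 ± 0.05). The ADARB1 siRNA libraries stood at 81.7 to 82.3 CPM for WSB2, below siNC, and at 56.1 to 60.8 CPM for BIN1, overlapping siNC. HINT1, a nucleotide hydrolase, fell by 1.53 ± 0.04 and PALM2AKAP2, a kinase-anchoring gene, by 1.29 ± 0.04. ABI3BP, a matrix protein, fell by 1.59 ± 0.05. IGFBP5, an IGF-binding protein, behaved otherwise: it stood at 37.3 to 44.1 CPM in siNC, 11.1 to 12.8 CPM after the ADAR siRNA and 13.05 to 15.999 CPM after the ADARB1 siRNA. CFHR3, complement factor H-related 3, went from 7.87 to 9.77 CPM down to 1.96 to 3.59 CPM and stood at 13.8 to 15.9 CPM after the ADARB1 siRNA; it belongs to a family of close copies.

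Other risers were named for the smallest p-values or the highest levels. THBS1, the matrix protein thrombospondin 1, stood at 1009, 1065 and 1078 CPM in siNC and at 2922, 2935 and 2847 CPM after the ADAR siRNA (log2 1.47 ± 0.03, adjusted p = 3.09e-12). THBS1 stood at 1016 to 1041 CPM after the ADARB1 siRNA, so the ADAR siRNA libraries were alone in being high. MET, the hepatocyte growth factor receptor, stood at 89.5, 93.7 and 105 CPM in siNC and at 338, 322 and 337 CPM (log2 1.79 ± 0.05). MET was also above siNC after the ADARB1 siRNA, at 197 to 201 CPM, and lay 0.74 higher after the ADAR siRNA in the direct test (adjusted p = 4.61e-08). CALU, calumenin, a calcium-binding protein of the secretory pathway, rose by 1.39 ± 0.04, to 263 to 269 CPM, but stood at 255 to 260 CPM after the ADARB1 siRNA, a direct difference of 0.05 (adjusted p = 0.349). ALPP, placental alkaline phosphatase, rose from 146 to 151 CPM up to 395 to 410 CPM (log2 1.44 ± 0.05); its close copy ALPG rose by 1.56 at a low level. BIRC3, an inhibitor of apoptosis induced by NF-kappaB, rose from 102 to 120 CPM up to 305 to 318 CPM (log2 1.48 ± 0.06), and AHNAK2 rose by 1.05 ± 0.07.

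Among abundant genes that fell, FTH1, the ferritin heavy chain that stores iron, stood at 1942, 2114 and 2212 CPM in siNC and at 904, 947 and 936 CPM after the ADAR siRNA (log2 -1.17 ± 0.05, adjusted p = 2.92e-10). Its ADARB1 siRNA libraries held 2035 to 2209 CPM, inside the siNC range; FTH1 has many processed pseudogenes that can share reads. PEG10, an imprinted gene derived from a retrotransposon, stood at 1441 to 1584 CPM in siNC, 554 to 592 CPM after the ADAR siRNA and 738 to 749 CPM after the ADARB1 siRNA. CPS1, the first enzyme of the urea cycle, stood at 645 to 756 CPM, 291 to 299 CPM and 453 to 467 CPM in the same order. PEG10 and CPS1 thus were lower after both siRNAs, and lower after the ADAR siRNA than after the ADARB1 siRNA by 0.38 (adjusted p = 3.06e-06) and 0.64 (adjusted p = 1.38e-07). Of 27 risers and 25 fallers with the largest, most significant or most abundant changes, coding and noncoding, those whose direct difference between both siRNAs missed the threshold were CALU and TUBBP10. Over all genes 35.7% were called in that direct test, 18.8% higher and 16.9% lower after the ADAR siRNA; it uses the same ADAR siRNA libraries and is not independent of the values above.

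Gene lists are described next by how many tested members were higher or lower, to be read against 20.2% and 17.6% of all tested genes and a median log2 fold change of -0.006. All tested list members are protein-coding, and of all 14345 tested protein-coding genes 28.2% were higher and 21.2% lower, with a median of 0.03. The share called also rose with level: outside the lists it was 9.44% below 1 CPM, 33.1% from 1 to 10 CPM and 55.9% from 10 to 100 CPM. The shares for comparison were not matched for level, so a list of well-expressed genes can exceed them for that reason alone. The lists overlap in part and were chosen with earlier results of these data known.

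**Figure D3:**
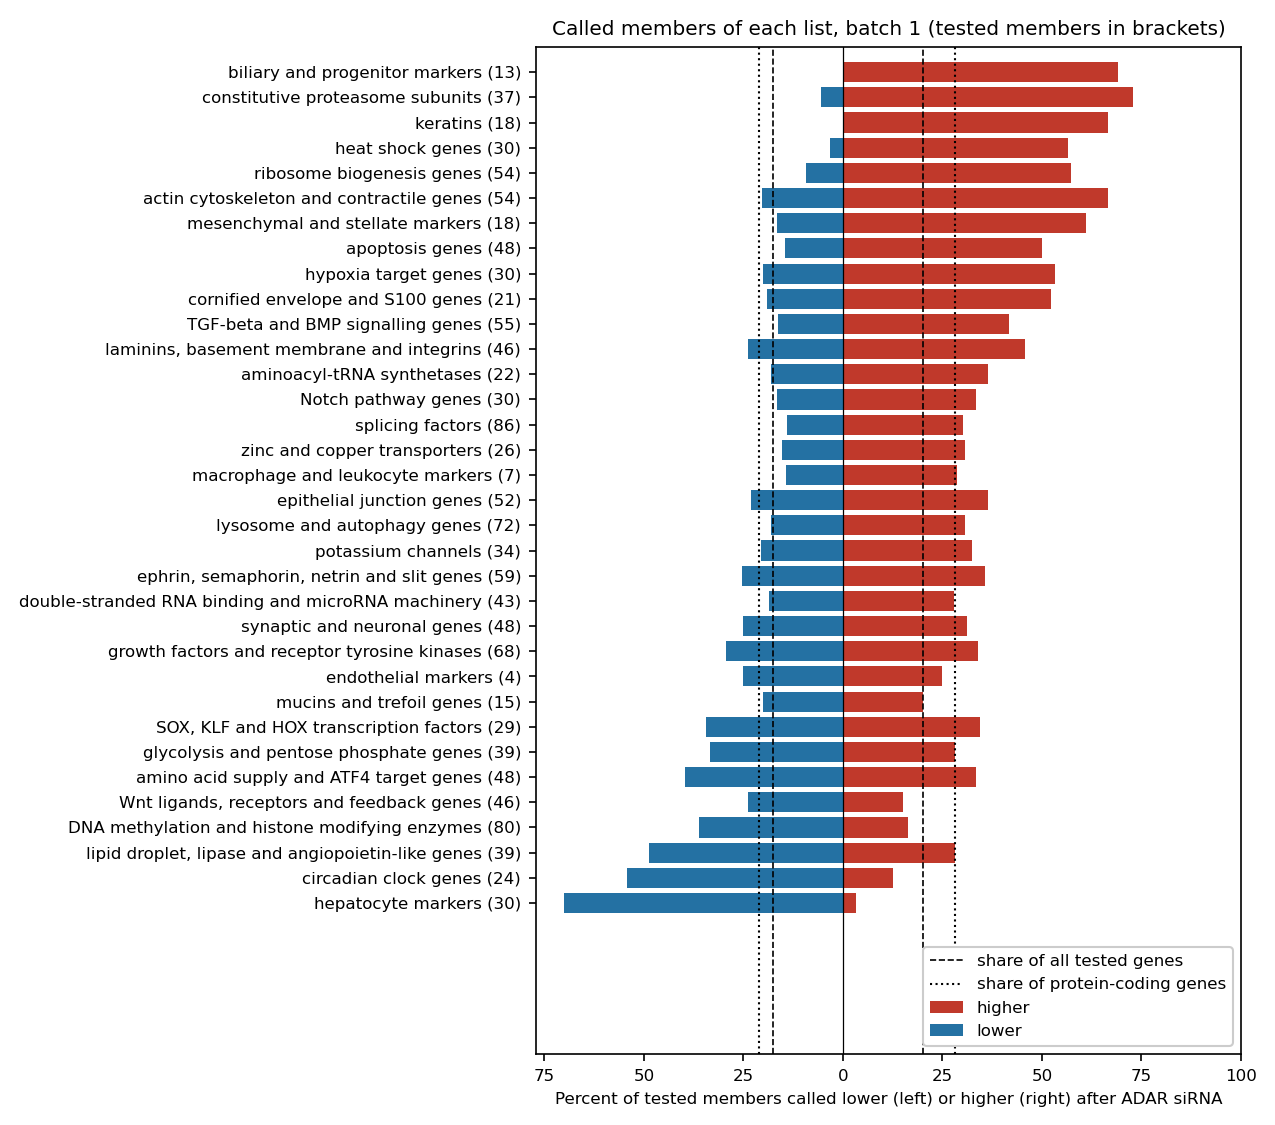
Percent of the tested members of each list called higher (right) or lower (left) after the ADAR siRNA, with the number tested in brackets; dashed lines mark 20.2% higher and 17.6% lower, the shares of all tested genes, and dotted lines 28.2% and 21.2%, those of protein-coding genes. Hepatocyte markers and circadian clock genes extend farthest to the left, and proteasome subunits, biliary markers, keratins and actin genes farthest to the right.

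Keratins, the intermediate filaments of epithelia, moved in 1 direction: of 38 genes 18 passed the filter, 12 were higher, 8 of them at least 2-fold, and 0 were lower (1 without ADAR siRNA replicate 1), with a median of 0.975. KRT19, a keratin of simple and biliary epithelium, stood at 280, 278 and 309 CPM in siNC, 673, 703 and 665 CPM after the ADAR siRNA and 284 to 302 CPM after the ADARB1 siRNA (log2 1.24 ± 0.05). KRT4, of mucosal epithelium, went from 7.09 to 9.28 CPM up to 31.7 to 33.2 CPM (log2 1.94 ± 0.09), and KRT15, of basal cells, from 1.63 to 2.05 CPM up to 8.32 to 9.67 CPM (log2 2.25 ± 0.12). The keratin pair of hepatocytes rose less, KRT8 by 0.39 ± 0.04 and KRT18 by 0.34 ± 0.04. KRT5, the partner of KRT14, stood at 10.4 to 11.9 CPM in siNC and 10.6 to 11.6 CPM after the ADAR siRNA (adjusted p = 0.822). Of 21 tested cornified envelope and S100 genes 11 were higher and 4 lower, with a median of 0.645. The calcium-binding proteins S100A3, S100A14, S100A4 and S100A2 rose by 1.69, 1.60, 1.45 and 1.30, while CASP14, in the same list, fell.

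**Figure D4:**
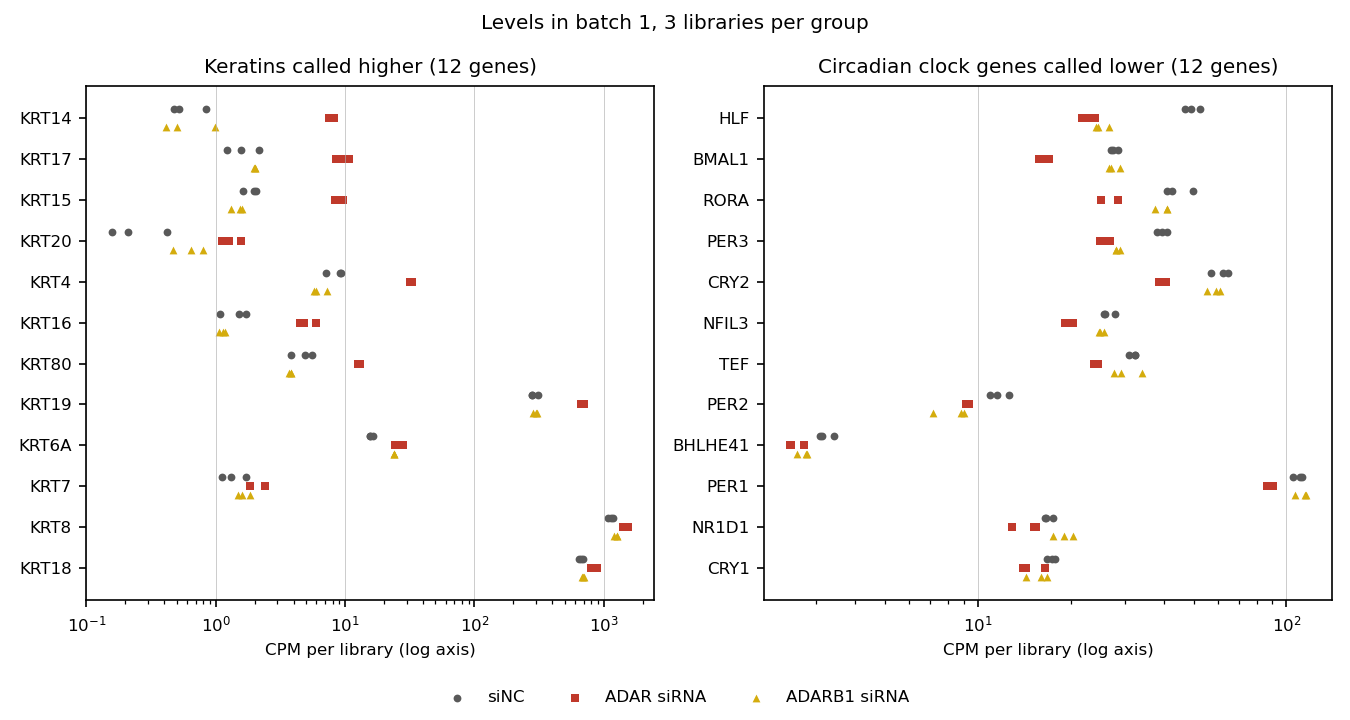
CPM of each batch 1 library (log axis) for the 12 keratins called higher and 12 of the 13 circadian clock genes called lower after the ADAR siRNA; circles are siNC, squares ADAR siRNA and triangles ADARB1 siRNA libraries. KRT14, KRT17, KRT15 and KRT4 show the widest gaps between squares and the other symbols, and for HLF, PER2 and PER3 the triangles lie near the squares.

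Cell adhesion genes were mixed. Of 52 tested epithelial junction genes 19 were higher and 12 lower. Tight junction claudins went both ways: CLDN1 rose from 179 to 203 CPM up to 334 to 349 CPM (log2 0.84 ± 0.05) and CLDN2, a pore-forming claudin, by 2.20 ± 0.16, while CLDN14 fell by 1.45 ± 0.10 and CLDN3 by 1.20 ± 0.15. The desmosomal cadherin DSC2 rose by 0.90 ± 0.05, and PKP4, a plakophilin family protein of adherens junctions, fell by 0.70 ± 0.03. After the ADARB1 siRNA CLDN1 was also above siNC, at 269 to 283 CPM, while DSC2 was below it, at 17.7 to 17.9 CPM. Of 46 tested laminins, basement membrane genes and integrins 21 were higher and 11 lower. ITGA3, a laminin-binding integrin chain, went from 684 to 710 CPM up to 1145 to 1194 CPM (log2 0.75 ± 0.03), ITGA5, of the fibronectin receptor, rose by 0.84 ± 0.04 and LAMA3, a chain of epithelial laminin, by 0.73 ± 0.04. ITGB3 rose by 1.46 ± 0.14 and the hemidesmosomal collagen COL17A1 by 1.83 ± 0.18. After the ADARB1 siRNA ITGA3 was also above siNC, at 908 to 948 CPM, while LAMA3 was below it, at 31.5 to 32.2 CPM.

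The actin cytoskeleton and contractile list had the highest share called, 87.0% of 54 tested, with 36 higher and 11 lower (7 without siNC replicate 1). MSN, moesin, which links actin to the membrane, went from 343 to 357 CPM up to 553 to 589 CPM (log2 0.70 ± 0.04). The actin-sequestering peptides TMSB10 and TMSB4X rose by 0.94 ± 0.05 and 0.72 ± 0.05, TPM4, a tropomyosin, by 0.82 ± 0.06, NES, nestin, by 1.502 ± 0.09 and ACTB, beta-actin, by 0.37 ± 0.04. CFL1, cofilin, which severs actin filaments, went the other way, from 261 to 290 CPM down to 167 to 180 CPM (log2 -0.66 ± 0.05).

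Of 68 tested growth factors and receptor tyrosine kinases 23 were higher and 20 lower. The MET family moved together at the receptor level: MST1R, the second member, rose from 5.21 to 6.59 CPM up to 17.7 to 18.9 CPM (log2 1.62 ± 0.09), while HGF, the MET ligand, fell from 3.27 to 4.32 CPM down to 1.67 to 2.42 CPM (log2 -1.05 ± 0.16). TYRO3, a receptor of GAS6, rose by 1.21 ± 0.05, its relative AXL by 0.28 ± 0.05 and the ligand GAS6 by 0.77 ± 0.04. FGF21, a hepatic hormone, fell by 1.02 ± 0.24. For GAS6 the direct difference from the ADARB1 siRNA was -0.02 (adjusted p = 0.756).

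Of 55 tested TGF-beta and BMP signalling genes 23 were higher and 9 lower. The ligands TGFB1 and TGFB2 rose by 0.38 ± 0.05 and 0.51 ± 0.07, GDF15, a stress-induced member of the family, went from 36.7 to 42.0 CPM up to 92.5 to 99.7 CPM (log2 1.29 ± 0.05), and FSTL3, an activin antagonist, rose by 1.20 ± 0.07. BMP4 fell by 0.31 ± 0.08 and INHBA, an activin subunit, by 0.45 ± 0.08. Of 30 tested Notch genes 10 were higher and 5 lower. The ligand JAG1 went from 27.2 to 30.3 CPM up to 56.3 to 63.6 CPM (log2 1.07 ± 0.06), JAG2 rose by 0.76 ± 0.08 and the receptor-cleaving protease ADAM17 fell by 0.48 ± 0.04. Of 46 tested Wnt genes 7 were higher and 11 lower. Among them the ligand WNT7B rose by 1.32 ± 0.16, whereas the coreceptor LRP6 and the receptors FZD8 and FZD4 fell by 0.61, 0.84 and 0.40. Of 59 tested ephrin, semaphorin, netrin and slit genes 21 were higher and 15 lower, with NRP1, a semaphorin and VEGF coreceptor, down by 0.51 ± 0.04, PLXNA2 up by 0.48 ± 0.04 and NTN1 up by 0.71 ± 0.06. NTN1 was higher still after the ADARB1 siRNA, by 0.51 (direct test, adjusted p = 1.02e-05).

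Protein quality control genes moved upward by small amounts. Of the 37 constitutive proteasome subunits and assembly factors, all tested, 27 were higher and 2 lower, 0 by 2-fold, with a median of 0.19. PSMB2, a catalytic subunit, went from 68.3 to 71.4 CPM up to 91.9 to 93.0 CPM (log2 0.41 ± 0.03) and PSMC3, an ATPase, rose by 0.47 ± 0.04, while PSMD2 fell from 129 to 130 CPM down to 98.7 to 103 CPM (log2 -0.36 ± 0.03) and PSMA2 fell by 0.16 ± 0.03. Of 30 tested heat shock genes 17 were higher and 1, the cochaperone STIP1, was lower (2 without siNC replicate 2). CRYAB, a small heat shock protein, went from 42.0 to 43.4 CPM up to 72.9 to 74.7 CPM (log2 0.78 ± 0.05), and HSPB1 and HSP90AA1 rose by 0.61 ± 0.05 and 0.40 ± 0.05. All 54 ribosome biogenesis genes were tested, of which 31 were higher and 5 lower. The transcription factor MYC rose by 0.44 ± 0.04, the nucleolar helicase DDX18 by 0.40 ± 0.05 and nucleolin (NCL) by 0.40 ± 0.06, and NOL6 fell by 0.33 ± 0.04. DDX18 was about as high after the ADARB1 siRNA, at 47.9 to 52.2 CPM against 50.6 to 53.6 CPM. The direct difference was 0.04 for DDX18 (adjusted p = 0.532), 0.36 for MYC and -0.45 for NOL6.

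Of 72 tested lysosome and autophagy genes 22 were higher and 13 lower. The sphingolipid hydrolases ASAH1 and SMPD1 fell by 0.57 ± 0.04 and 0.71 ± 0.05, and OSTM1, a subunit of a lysosomal chloride transporter, rose by 0.48 ± 0.04. Of 48 tested apoptosis genes 24 were higher and 7 lower, on both sides of the pathway: the survival genes BIRC3 and MCL1 rose by 1.48 and 0.47, and the death effectors PMAIP1 (NOXA) and BAX by 1.08 and 0.47.

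RNA-handling genes mostly changed by small amounts. Of 86 tested splicing factors 26 were higher (17 without siNC replicate 1) and 12 lower. SNRPD2, a core protein of spliceosomal particles, stood at 46.0, 47.2 and 46.3 CPM in siNC, 17.9, 19.4 and 19.7 CPM after the ADAR siRNA and 55.4 to 55.6 CPM after the ADARB1 siRNA (log2 -1.29 ± 0.04, adjusted p = 4.98e-11). It was the only member of that list changed at least 2-fold; its partner SNRPD1 rose by 0.57 ± 0.07. MBNL3 and RBM47, regulators of RNA processing, fell by 0.86 ± 0.05 and 0.65 ± 0.04. RBM47 was as low after the ADARB1 siRNA, at 46.9 to 51.9 CPM against 47.0 to 50.1 CPM, a direct difference of -0.02 (adjusted p = 0.732). Of 43 tested genes for double-stranded RNA binding and microRNA processing 12 were higher and 8 lower. STAU1, a double-stranded RNA-binding protein, went from 90.6 to 96.9 CPM down to 57.7 to 59.1 CPM (log2 -0.68 ± 0.04), DICER1 fell by 0.35 ± 0.04 and LIN28B, a let-7 inhibitor, rose by 0.77 ± 0.07.

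Of 80 tested DNA methylation and histone modifying enzymes 13 were higher and 29 lower. The acetyltransferase CREBBP and the acetyl-lysine reader BRD3 fell by 0.38 ± 0.03 and 0.59 ± 0.04, while UHRF1, which maintains DNA methylation in dividing cells, rose by 0.82 ± 0.07 and HDAC9 by 1.07 ± 0.10. Circadian clock genes leaned down, with 3 of 24 higher and 13 lower and a median of -0.277. BMAL1, the activator at the core of the clock, stood at 27.5, 27.0 and 28.5 CPM in siNC, 17.0, 15.8 and 16.6 CPM after the ADAR siRNA and 26.5 to 28.9 CPM after the ADARB1 siRNA (log2 -0.75 ± 0.05). RORA, a nuclear receptor that activates BMAL1, fell by 0.70 ± 0.07, and the repressors PER3 and CRY2 by 0.62 ± 0.05 and 0.62 ± 0.05. HLF, a clock output factor, went from 46.9 to 52.5 CPM down to 21.7 to 24.03 CPM (log2 -1.12 ± 0.06) and stood at 24.1 to 26.6 CPM after the ADARB1 siRNA, a direct difference of -0.14 (adjusted p = 0.0788). The 3 that rose were BMAL2, TIMELESS and NR1D2, by 0.32, 0.24 and 0.21. Of 29 tested SOX, KLF and HOX factors 10 were higher and 10 lower, with KLF15, a factor of amino acid and glucose metabolism, down by 0.99 ± 0.04 and KLF5 and KLF6 up by 0.63 ± 0.05 and 0.59 ± 0.04.

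Metabolic lists were split between directions. Of 48 tested amino acid supply and ATF4 target genes 16 were higher and 19 lower. SLC38A4, a hepatic amino acid transporter, went from 50.5 to 56.0 CPM down to 22.7 to 24.8 CPM (log2 -1.17 ± 0.05), and GPT, alanine aminotransferase, fell by 1.07 ± 0.05, CEBPB by 0.76 ± 0.03 and CTH by 0.91 ± 0.08. The cationic amino acid transporter SLC7A1 rose by 0.94 ± 0.06. Of 39 tested glycolysis and pentose phosphate genes 11 were higher (6 without siNC replicate 1) and 13 lower. The hepatic forms fell, SLC2A2 (the glucose transporter GLUT2) by 0.67 ± 0.05 and KHK, fructokinase, by 0.52 ± 0.04, and PFKFB3, which raises glycolytic flux, rose by 0.63 ± 0.04. Of 39 tested lipid droplet, lipase and angiopoietin-like genes 11 were higher and 19 lower. G0S2, an inhibitor of triglyceride lipolysis, stood at 121, 125 and 121 CPM in siNC and at 40.3, 50.1 and 41.9 CPM after the ADAR siRNA (log2 -1.48 ± 0.07). GPAM, which starts triglyceride synthesis, went from 627 to 722 CPM down to 347 to 375 CPM (log2 -0.92 ± 0.05), and LPL, lipoprotein lipase, fell by 0.66 ± 0.04. Hypoxia target genes leaned up, 16 of 30 higher and 6 lower, with the prolyl hydroxylases EGLN3 and P4HA2 up by 0.87 ± 0.05 and 0.84 ± 0.05. Of the 22 aminoacyl-tRNA synthetase genes 8 were higher and 4 lower, but the number higher fell to between 2 and 5 when any 1 of the 6 libraries was left out and to 0, with 2 lower, when all 19 libraries were fitted together. SARS1, the seryl-tRNA synthetase, went from 86.4 to 92.5 CPM down to 47.4 to 51.4 CPM (log2 -0.87 ± 0.04).

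The remaining lists held members that moved either way. Of 48 tested synaptic and neuronal genes 15 were higher and 12 lower, with SYT13 up by 1.18 ± 0.07 and SHANK2 down by 0.52 ± 0.05. Of 34 tested potassium channels 11 were higher and 7 lower, with KCNN4, a calcium-activated channel, up from 1.38 to 1.96 CPM to 5.74 to 6.19 CPM (log2 1.86 ± 0.14) and KCND3 down by 0.93 ± 0.09. Of 26 tested zinc and copper transporters 8 were higher and 4 lower, with the zinc importers SLC39A6 and SLC39A10 both up by 0.59 and SLC39A8 down by 0.48. Of 15 tested mucin and trefoil genes 3 were higher and 3 lower, PODXL up by 1.32 ± 0.07.

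Markers of the cell types such a culture could hold were counted in the same way. Of 30 hepatocyte markers 1 was higher (2 or 3 without ADAR siRNA replicate 1 or siNC replicate 2) and 21 were lower, and their summed level was 88430 to 95220 CPM in siNC and 67860 to 72890 CPM after the ADAR siRNA. A large part of that sum was ALB, albumin, at a mean of 38840 CPM in siNC and 25970 CPM after the ADAR siRNA. TDO2, which degrades tryptophan, stood at 247, 249 and 251 CPM in siNC and at 77.8, 76.5 and 87.2 CPM (log2 -1.63 ± 0.06). ALB fell by 0.58 ± 0.03 and HNF4A, a master regulator of hepatocyte genes, by 0.67 ± 0.04. After the ADARB1 siRNA ALB (mean 31600 CPM) and TDO2 (174 to 199 CPM) were also below siNC. The direct differences between both siRNAs were -0.28 for ALB, -1.19 for TDO2 and -0.67 for HNF4A. Of 16 biliary and progenitor markers 13 were tested, 9 higher and 0 lower (1 without siNC replicate 1), and the summed level was 692.4 to 757.8 CPM in siNC and 1243 to 1273 CPM after the ADAR siRNA. A large part of this sum was KRT19, at a mean of 288.9 CPM in siNC and 680.1 CPM after the ADAR siRNA, already given among the keratins. SPP1, osteopontin, rose by 1.44 ± 0.05, while EPCAM stood below 0.1 CPM. SPP1 was also above siNC after the ADARB1 siRNA, at 50.3 to 53.6 CPM, with a direct difference of 0.55. Of 18 tested mesenchymal markers 11 were higher and 3 lower, yet the sum was 4647 to 4813 CPM against 4378 to 4615 CPM: POSTN and LUM, matrix proteins, rose by 1.35 ± 0.07 and 0.97 ± 0.05 and COL3A1, a fibrillar collagen, fell by 1.46 ± 0.06. Of 4 tested endothelial markers PECAM1 was higher and KDR lower (adjusted p = 0.0243; not called without ADAR siRNA replicate 2 or siNC replicate 1 or 2), and 8 of the 14 stood below 0.1 CPM. Of 7 tested macrophage and leukocyte markers MARCO and ADGRE1 were higher and CD68 lower. MARCO stood at a mean of only 0.115 CPM in siNC and 0.625 CPM after the ADAR siRNA, and ADGRE1 at 0.587 and 1.14 CPM. A gene as low as MARCO can pass the expression filter through its high group, which partly fixes its rise. Of the 18 markers 10 stood below 0.1 CPM, and the sums were 40.47 to 49.57 and 39.86 to 41.88 CPM. In a bulk culture fewer cells of a type and less RNA per cell cannot be told apart, and the part of these marker changes in the list results was not tested.

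Some noncoding genes with the largest changes lay beside a coding gene that was itself called, as were 49.4% of all tested protein-coding genes. IGFL2-AS1 stood at 8.76, 7.52 and 8.37 CPM in siNC and at 36.5, 30.8 and 34.7 CPM after the ADAR siRNA (log2 2.04 ± 0.08). IGFL2 rose by 2.61 ± 0.46, but from a mean of only 0.101 CPM to 0.656 CPM. A gene at such levels can pass the expression filter through its high group, so its rise adds little. APCDD1L-DT and its neighbour APCDD1L rose by 1.88 and 1.43, and SH3TC2-DT and SH3TC2 by 1.60 and 1.26. In the other direction HNF4A-AS1 went from 16.9 to 20.7 CPM down to 5.92 to 6.91 CPM (log2 -1.61 ± 0.09) with HNF4A, and CPS1-IT1, which lies in an intron of CPS1, fell by 1.73 ± 0.20 with it. RRS1-DT fell by 1.73 ± 0.14 while RRS1, a ribosome biogenesis factor, rose by 0.45 ± 0.06. LINC00525 and LNCOG rose by 1.91 ± 0.31 and 1.49 ± 0.18. The pseudogenes TUBBP10 and COX6B1P4 fell by 2.59 ± 0.61 and 1.89 ± 0.36, and their reads can come from the parent genes; without ADAR siRNA replicate 2 the value of TUBBP10 was -4.01. In a count made after these values were seen, 40 tested noncoding genes named after a neighbour were higher, and their neighbours were higher in 26 pairs, lower in 7 and not called in 7. Of 128 lower ones, the neighbour was higher in 21 pairs, lower in 52 and not called in 55. For the 798 not called these numbers were 219, 207 and 372. The libraries were directional, but the strand setting of the quantification is not stated in the labels or processing notes, so reads of overlapping pairs may not be separable.

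Batch 2 gave the same siRNA in other libraries, with BX795, an inhibitor of the kinases TBK1 and IKK epsilon, in both groups (2 against 3 libraries). No source used here states if a control siRNA was given to the wells with only BX795 or IFNa. Far fewer genes were called there, 3.66% of 20718 tested, 1.49% higher and 2.17% lower, and the 758 calls fell to between 181 and 453 when any 1 of the 5 libraries was left out. Of the outside genes higher in batch 1, 4088 were tested in batch 2, of which 252 were higher and 60 lower, and 82.4% had a positive log2 fold change. Of the outside genes lower in batch 1, 3618 were tested, of which 4 were higher and 281 lower, and 22.1% had a positive change, against 51.1% of genes not called in batch 1. At 2-fold or more in batch 1, 56 of 333 tested risers were higher and 3 lower, and 1 of 298 tested fallers was higher and 60 lower. Of the 27 risers with the largest, most significant or most abundant changes 20 were tested, 10 higher and 0 lower. Of the 25 such fallers 22 were tested, 0 higher and 8 lower. THBS1 was 1.17 higher, KRT19 1.09 higher, MET 1.34 higher and ALPP 2.31 higher in the presence of BX795. FTH1 was 1.10 lower, WSB2 1.54 lower, BIN1 1.35 lower and PALM2AKAP2 1.29 lower. Their batch 1 log2 fold changes were -1.17, -1.76, -1.74 and -1.29 in that order. IL1RL1 and APOA4, in contrast, stood at -0.52 (adjusted p = 0.137) and -0.99 (adjusted p = 0.610), after rises of 2.32 and 2.30 in batch 1. Batch, BX795 and a possible lack of control siRNA cannot be told apart in such differences between batches.

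The 60 outside genes that rose in batch 1 and were lower with BX795 were 1.47% of the 4088 risers tested, against 2.17% of all tested genes. They were singled out after their values were seen, so both directions are fixed by the choice. The limit on batch, BX795 and control siRNA given above holds for them too. The 8 with the highest mean level are given here. MKI67, the proliferation antigen Ki-67, stood at 62.1, 62.7 and 68.0 CPM in siNC and at 80.2, 93.7 and 92.5 CPM after the ADAR siRNA of batch 1. With BX795, MKI67 stood at 21.0, 19.7 and 18.3 CPM without and at 6.53 and 8.45 CPM with the ADAR siRNA (log2 -1.39 ± 0.15, adjusted p = 0.000778). The groups did not overlap in either batch, and MKI67 was at 31.5 to 40.4 CPM in the siNC libraries of batch 2. TOP2A, which untangles replicated DNA, rose by 0.41 ± 0.06 in batch 1 and was at 18.0 to 21.1 CPM against 5.57 and 7.08 CPM with BX795 (log2 -1.62 ± 0.14). ANLN, of the cleavage furrow, rose by 0.95 ± 0.07 and then differed by -0.83 ± 0.15. RRM2, a subunit of ribonucleotide reductase, rose by 0.24 ± 0.05 and then differed by -1.74 ± 0.23, and the replication-linked histone gene H3C2 rose by 0.81 ± 0.07 and then differed by -1.31 ± 0.28. HELLS and FAM111B rose by 0.34 and 0.45 and then differed by -0.69 and -1.32; the kinase gene STK39 rose by 0.29 and then differed by -0.58.

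**Figure D5:**
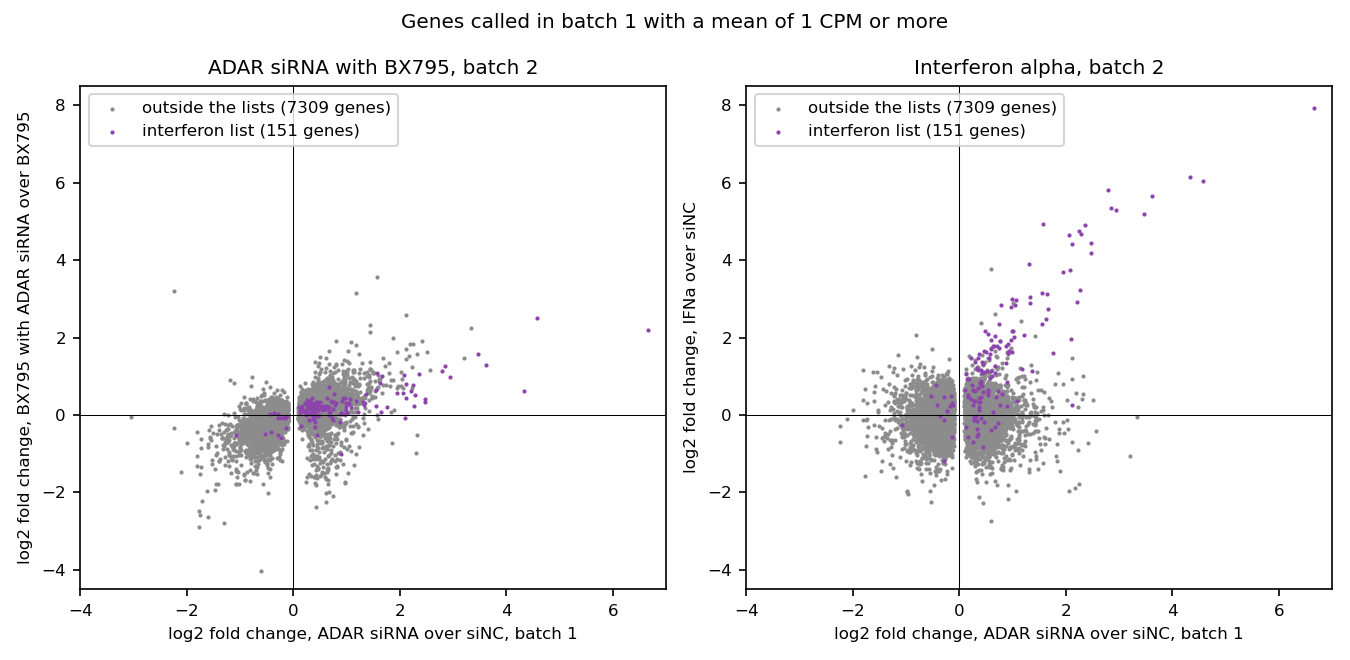
Log2 fold change in batch 2 (vertical) against that after the ADAR siRNA in batch 1 (horizontal) for genes called in batch 1 with a mean of 1 CPM or more; left, ADAR siRNA in the presence of BX795, right, IFNa; grey points are genes outside the lists and purple points interferon genes, and 1 grey point on the left and 2 on the right lie beyond the axes. On the left most grey points keep their sign, with a group of risers below the zero line; on the right purple points climb with IFNa while grey points spread evenly above and below zero.

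IFNa in batch 2 gave a reference for the interferon response, with 11.9% of tested genes higher and 10.9% lower. Of 143 interferon genes that rose after the ADAR siRNA, 107 were higher and 5 lower after IFNa, with a median of 1.325. Of the 4088 outside risers 687 were higher and 551 lower, with a median of 0.033 and 52.4% positive. Of the 3618 outside fallers 506 were higher and 554 lower, with 48.6% positive. Risers of at least 2-fold stood at 31 higher and 26 lower of 333, and fallers at 25 and 26 of 298. Both directions were thus about equally common among them. Of the 27 risers with the largest, most significant or most abundant changes 20 were tested, 6 higher and 2 lower after IFNa. The higher ones included THBS1 (1.10), IL1RL1 (1.01), MET (0.79) and BIRC3 (0.65), and the lower ones were KRT19 (-0.79) and AHNAK2 (-0.72). Of the 25 such fallers 22 were tested, 4 higher and 3 lower. The IFNa calls depend on single libraries: 4705 genes were called with all, 263 without IFNa replicate 1, 7514 without batch 2 siNC replicate 1, 1847 without siNC replicate 2 and 1532 without siNC replicate 3.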

How the data were processed

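RNA from differentiated HepaRG cells was sequenced after rRNA removal, as directional paired-end libraries, per the labels' protocols. The authors deposited 1 table of expected counts per gene, estimated before deposit. STAR, Salmon and the GRCh38.p14 build are named, per the submitters' processing notes, while their versions, roles and settings are not stated there. Of its values 94.8% lay within 0.005 of a whole number, and counts were rounded, moving none by more than 0.5. Totals of the 9 batch 1 libraries were 42651970 to 77103703 counts and of the 10 batch 2 libraries 13080852 to 34720016. Symbols were found for 61463 of 78894 genes.

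Batch 1 was fitted alone (9 libraries, 3 groups, 6 residual degrees of freedom, common biological coefficient of variation 6.68%) with edgeR 4.0.16 in R 4.3.3: filterByExpr, TMM scaling, 1 mean per group, quasi-likelihood F tests and Benjamini-Hochberg adjustment over 21747 genes. Batch 2 was fitted alone likewise (10 libraries, 20718 genes, 14.2%). All adjusted p-values are from this test. CPM are TMM-scaled, and errors are SE. Replicates differed beyond counting noise (chi-square per gene 5.83 to 19.55), so none was a copy.

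Genes named outside the lists were called, had a symbol, at least 1 CPM in a group and no overlap between libraries, and were the 15 largest rises and falls, 10 smallest p-values and 10 most abundant at 2-fold (coding), 5 noncoding each way. In each of 29 lists and 5 marker lists the 3 called members with the smallest p were named, at any level. A few genes that this rule or a list holds are not reported here. Other members were chosen after their values were seen. The members and lists were chosen with earlier results of these data known. Alternatives were DESeq2 1.42.0, RLE size factors, no filter, the compared groups alone, all 19 libraries, the replicate number as a block, and each library left out. Promoters were RefSeq's, found for 105 of 148 named genes.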

Additional observations from a re-analysis of the deposited data

Results flagged for a closer look

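For 15 of 53 leading genes the response to the ADAR siRNA differed between cells with BX795 (batch 2) and without it (batch 1) by an interaction test in a fit of all 19 libraries, in which 790 of 23121 genes were called. Batch and BX795 cannot be told apart in these differences, given here as the log2 change with BX795 minus that without. It is also not stated if the wells with only BX795 received a control siRNA. An effect of transfection therefore cannot be told apart either. Rises that were smaller or absent with BX795 were those of APOA4 (-3.29), IL1RL1 (-2.81), IGFL2-AS1 (-1.09), BIRC3 (-0.96) and TUBA1A (-0.74). Falls that were smaller with BX795 were those of LRRTM3 (1.95), RASL10B (1.95), IGFBP5 (1.40), ADRA1A (1.29), ABI3BP (1.22), RRS1-DT (1.12), PEG10 (1.05), CPS1 (0.71) and HINT1 (0.40). ALPP alone among the 15 rose more with BX795 (0.90). The adjusted p was smallest for IL1RL1 (6.67e-07) and largest for CPS1 (0.0343). ADRA1A, a hepatic catecholamine receptor, fell by 2.00 without BX795 and by 0.73 with it, each in its own batch.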

How the results depend on the processing

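No named gene changed direction under any alternative. Fitting all 19 libraries together moved the 8223 calls to 5042, those outside the lists from 4209 higher and 3723 lower to 2395 higher and 2415 lower, an even balance, the 7768 of the direct test to 4518, the BX795 count to 2201 and the IFNa count to 7932; it moved 28 of 68 list counts by over 1.5 times. The 758 BX795 calls became 1264 with DESeq2 and 1287 without a filter. With each library left out in turn, the main count lay between 7052 and 7699, outside risers between 3597 and 3955 and outside fallers between 3179 and 3458, BX795 calls between 181 and 453 and IFNa calls between 263 and 7514. Leaving a group with 1 library assumes that it varies like the others. Same-numbered siNC and ADAR siRNA libraries correlated in their deviations at 0.000, 0.073 and 0.109, so the numbers were not taken as pairs; with the replicate block the main count was 8015, the BX795 count 282 and the IFNa count 612. Of 148 named genes KDR and YARS1 lost their call with all 19 libraries (log2 -0.19 and -0.26), and KDR without any of 3 single libraries. Counts were fewest below 1 CPM, where 9.44% of outside genes were called; whether depth sets that share was not tested. The causes of the moved counts were not tested either.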
